A study of Homo sapiens with 8 samples.

Results

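Myeloma cells that had received a lentivirus carrying a non-targeted (NT) shRNA were compared with uninfected cells of the same line, on 4 of the 8 arrays of a study of IRE1 and XBP1 silencing. The members were taken from the treatment on each array's label. They are the NT shRNA array and the uninfected array of RPMI-8226 and the same pair of JJN3, so that each line gives 1 difference and the 2 lines are the replicates (n = 2). RPMI-8226 and JJN3 are established human multiple myeloma lines, tumours of antibody-secreting plasma cells. Both were grown in IMDM with fetal bovine serum, and total RNA was hybridised to Affymetrix arrays. The infected cultures were exposed for 16 h to diluted viral supernatant with 8 µg/mL polybrene, and cells were harvested at 96 h. The other 4 arrays are cultures of the same lines that received a lentivirus with an shRNA against XBP1 or against IRE1, the product of ERN1. The uninfected cultures carry no shRNA, and whether they received polybrene is not given in the sources used here. The NT culture therefore differs from them by the virus, its cargo and possibly the polybrene together, and these cannot be told apart. By the series' design text, the uninfected cells serve to show expression changes that belong to the response to lentivirus.

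A lentiviral vector enters the cell, copies its RNA genome into DNA and inserts that copy into a chromosome, from which the hairpin is transcribed. Polybrene is a positively charged polymer that helps virus particles bind the cell surface. Cells can sense viral RNA through RIG-I-like receptors and viral DNA through cGAS and STING, which lead to type I interferon and, through the interferon receptor, to a set of antiviral genes. The hairpin itself is processed by DICER1 and loaded onto Argonaute proteins, where it can lower any transcript that its short guide strand matches. A hairpin with no intended target is used so that effects of infection and of an occupied RNAi pathway appear in the control as well.

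The deposited values are centred. Each of the 54675 probe sets has a median of 0 over the 8 arrays, so that arrays can be set against each other but no level of expression can be read, and the plasma cell type of the lines could not be checked against its defining markers. All values below are these centred values, or differences of them, read as log2 units, in which 1 unit is 2-fold. A gene is represented by 1 probe set, the one that varied most over the 4 XBP1 and IRE1 shRNA arrays, which take no part in the difference itself.

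A pair of short promoter elements is shown first, because they were searched for in the interferon and stress genes described below. The interferon-stimulated response element (ISRE) is a short sequence in the promoters of many interferon-induced genes. Its core, read as GAAA, any 2 bases and GAAA on either strand, lay in 28 of the 44 RefSeq promoter windows of the interferon response list (63.6%), against 1255 of 35116 windows of all genes (3.57%; 250 bases before to 50 after the start). For the list of retroviral restriction factors it lay in 4 of 21 windows (19.0%). The stretches below (RefSeq, GRCh38.p14, gene strand, core in capitals) are from PARP9, at chr3:122564322-122564351 on the minus strand, and from 1 of the windows of IFIT3, at chr10:89327831-89327894 on the plus strand. PARP9 stood out on 1 array and IFIT3 was higher in both lines. The core in the PARP9 stretch also lies in the promoter window of DTX3L, which is read in the opposite direction, at chr3:122564332-122564341.
PARP9: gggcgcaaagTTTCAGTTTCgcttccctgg
IFIT3: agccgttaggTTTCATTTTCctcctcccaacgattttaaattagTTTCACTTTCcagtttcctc

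The C/EBP-ATF element is bound by ATF4, the transcription factor made under amino acid shortage and endoplasmic reticulum stress. Its core TGATGNAA, on either strand, lay in 8 of 45 promoter windows of the PERK-ATF4 stress list (17.8%), against 3.62% of all windows. The stretches are from ASNS, at chr7:97872454-97872491 on the minus strand, and CEBPG, at chr19:33374056-33374093 on the plus strand. At the probe set used, both genes were lower in both lines, while the other ASNS probe set was higher in both. A match of letters is a description and not a site.
ASNS: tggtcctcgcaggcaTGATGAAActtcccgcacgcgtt
CEBPG: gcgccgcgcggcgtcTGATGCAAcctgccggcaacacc

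No gene passed the test. In limma's fit with the line as a block, 0 of 19775 genes had a Benjamini-Hochberg adjusted p under 0.05 in either direction (0.0%), and the smallest adjusted p was 0.887. At an unadjusted p under 0.05 there were 543 genes higher (2.75%) and 537 lower (2.72%) with NT shRNA, 1080 in all (5.46%). The threshold alone would give 988.75 of 19775. Every value below is thus a measured difference that was not told apart from the spread between the arrays in the fit. The p-values measure only that spread, with the lines as replicates. Besides the NT and uninfected arrays, the fit took in the XBP1 and IRE1 shRNA arrays. Each standard error (SE) and p-value therefore also holds how far the lines differed under those hairpins, which silence XBP1 and ERN1 themselves. CTH, for example, had an SE of 0.61, although its NT differences were -0.48 in RPMI-8226 and -0.53 in JJN3.

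The NT minus uninfected differences had an SD over genes of 0.339 in RPMI-8226 and 0.230 in JJN3. In RPMI-8226, 110 genes were at least 2-fold higher (0.556%) and 135 at least 2-fold lower (0.683%), and in JJN3 these numbers were 12 (0.0607%) and 9 (0.0455%). The differences of the 2 lines, which share no array, had r = 0.192 and rho = 0.175 across the 19775 genes. Genes are not independent replicates, and the figures are a description. On the same side of 0 in both lines were 5825 genes that were higher (29.5%) and 5254 that were lower (26.6%).

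Control probe sets differed between the arrays as well. The poly-A spike-in controls, RNAs added before labelling, had a median of 0.24 on the RPMI-8226 NT array against -0.02 on its uninfected array, and of -0.06 against -0.17 in JJN3 (27 probe sets). The XBP1 shRNA array was higher than the NT array in each line, at 0.41 and 0.12, and the IRE1 shRNA arrays stood at -0.01 and -0.08. The 3' minus 5' difference for actin, a measure of RNA quality, was lowest on the NT array in both lines, at -0.61 against -0.43 uninfected in RPMI-8226 and 0.13 against 0.34 in JJN3. Of 6 ribosomal RNA control probe sets 5 were higher on the NT array in RPMI-8226 (median difference 0.49), and 0 of 6 in JJN3 (median -0.24). Probe sets for the 45S pre-ribosomal RNA gene RNA45SN5 differed by 2.40 and 3.18 in RPMI-8226 and by -0.10 and -0.17 in JJN3. The XBP1 shRNA array of RPMI-8226 was also higher than uninfected at these 2 probe sets, by 2.09 and 2.30. The part of these differences in the results below was not tested.

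A gene with several probe sets is given here by the one with the highest SD over the XBP1 and IRE1 shRNA arrays, and the size of a difference often depended on that choice. Among the genes whose difference is given at the probe set used, 72 had several probe sets and a fitted difference of at least 0.2. The mean over probe sets was within 1.5 times the value used for 36 of them, more than 1.5 times larger for 1 (HLA-DPA1), more than 1.5 times smaller for 33, and of opposite sign for 2 (TCF3 and PPHLN1). The 33 are RAC1, BTBD7, EMP1, CTSZ, IFIH1, IFIT3, EPSTI1, TRIM5, MORC2, APOBEC3G, PSIP1, AGO3, ACACA, SC5D, SHMT2, ALDH1L2, ASNS, TRIB3, ERO1B, CD74, CIITA, HLA-DPB1, SDC1, IRF4, CD44, BUB1, SLC2A3, PFKFB4, BCL6, SPP1, SOCS3, PARP9 and CXCL8.

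**Figure D1:**
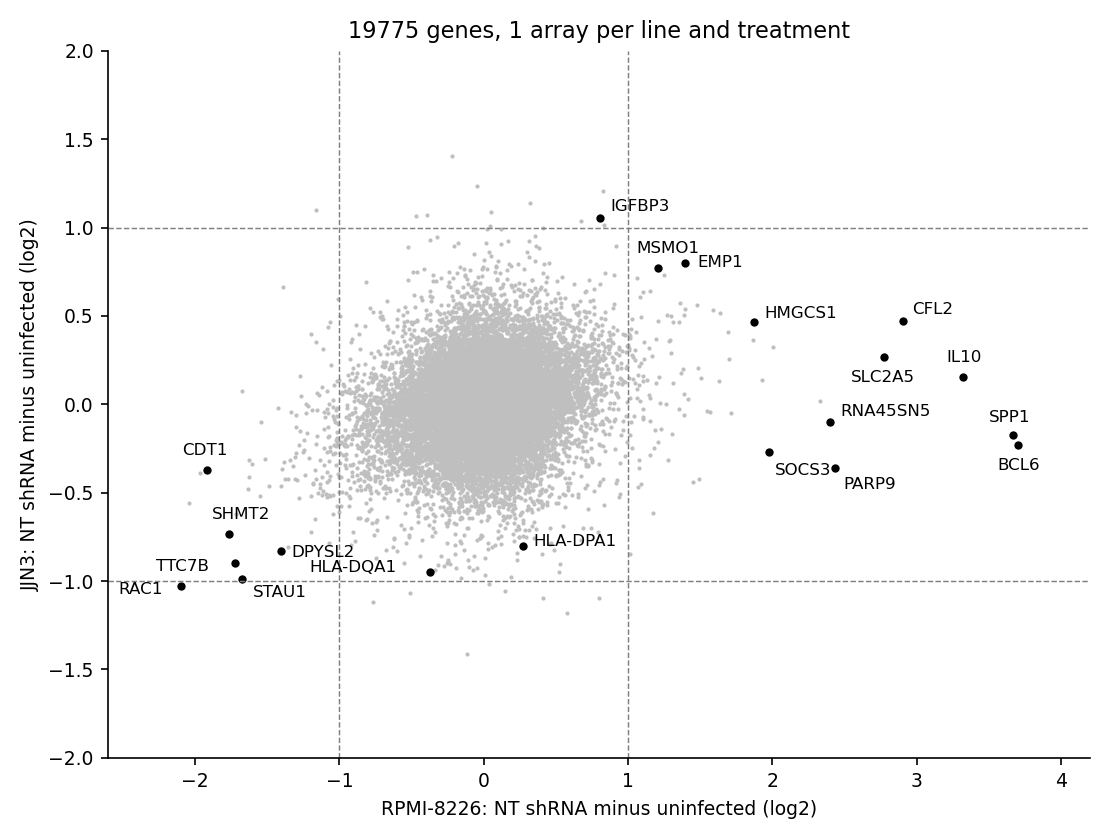
Difference between the NT shRNA and the uninfected array for each of 19775 genes, RPMI-8226 on the x axis and JJN3 on the y axis (log2), with dashed lines at 2-fold. RAC1 is the only gene beyond 2-fold the same way in both lines with the probe sets used, a call it loses with the mean over probe sets, while BCL6, SPP1, IL10 and PARP9 lie far out along the RPMI-8226 axis near 0 in JJN3.

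RAC1 was the only gene of the 19775 that was at least 2-fold lower in both lines (1 gene, 0.00506%), and 0 were at least 2-fold higher in both (0.0%). RAC1 encodes a small GTPase that drives actin assembly at the cell edge and cell movement. Its value was -0.01 in uninfected and -2.10 in NT cells of RPMI-8226, and -0.02 and -1.04 in JJN3. The 4 arrays of the XBP1 and IRE1 shRNA cultures stood between 0.01 and 0.48, so the NT arrays were the 2 lowest of the 8. The fitted difference was -1.56 ± 0.23 (SE; limma adjusted p = 0.887). All 4 RAC1 probe sets were lower in both lines, by differences of -2.53 to -0.14 in RPMI-8226, and in JJN3 by -1.03 to -0.06. The size of the difference thus varied with the probe set, and its direction was the same in all 4. The mean over probe sets was -1.30 in RPMI-8226 and -0.60 in JJN3, which is under 2-fold in JJN3. After cyclic loess RAC1 was also no longer past 2-fold in both lines together, and ZNF165 (higher) was the 1 gene that was. The same held with the probe set of highest SD over all 8 arrays, where SSBP3 (lower) was the 1 gene.

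With a limit of 1.5-fold in both lines, chosen after the values were seen, 35 genes were lower (0.177%) and 23 higher (0.116%). Among these 58 genes 17 have 1 probe set. Of the 41 with several, 18 had every probe set on the same side of 0 in both lines. Apart from DUSP4, BIK and CTSZ, which were under 1.5-fold in JJN3, the genes described next were chosen from these 58 after their values were seen. All of their differences are given without a claim of a change.

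Some genes were lower with NT shRNA and near or above uninfected on the other infected arrays. BTBD7, a BTB domain protein, stood at -0.07 uninfected and -1.48 NT in RPMI-8226, and at 0.84 and 0.03 in JJN3. Its XBP1 and IRE1 shRNA arrays differed from uninfected by -0.10 and 0.04 in RPMI-8226 and by 0.55 and 0.09 in JJN3. Among its 5 probe sets, however, 3 were lower and 2 higher in both lines. NUP35, a nuclear pore protein with 1 probe set, stood at -0.44 and -1.51 in RPMI-8226 and at 0.32 and -0.47 in JJN3. The other infected arrays lay 0.27 to 0.61 above uninfected. NUP35 on the NT arrays was therefore the lowest of the 4 treatments in each line.

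ARPC1B, a subunit of the Arp2/3 complex that nucleates branched actin and acts downstream of RAC1, was -1.04 and -0.62 apart in RPMI-8226 and JJN3. Its XBP1 and IRE1 shRNA arrays differed from uninfected by 0.04 and -0.10 in RPMI-8226 and by 0.32 and 0.04 in JJN3. ALYREF, an adaptor for mRNA export from the nucleus, was lower at both of its probe sets, by -1.17 and -1.02 in RPMI-8226 and by -0.65 and -0.77 in JJN3. FBXW11, the substrate receptor of a ubiquitin ligase, had differences of -0.68 in RPMI-8226 and -0.82 in JJN3. For ALYREF the other infected arrays lay 0.16 to 0.71 above uninfected, and for FBXW11 they ranged from -0.24 to 0.38. The fitted differences of NUP35, ARPC1B, ALYREF and FBXW11 were -0.93 ± 0.18, -0.83 ± 0.16, -0.91 ± 0.22 and -0.75 ± 0.16 (SE; limma adjusted p = 0.887 for each).

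STAU1 was low with 2 of the 3 hairpins. It encodes a double-stranded RNA-binding protein that transports mRNA and takes part in its decay. Values were 0.19 uninfected and -1.49 NT in RPMI-8226, and 0.80 and -0.19 in JJN3. All 4 probe sets lay within -1.67 to -1.50 in RPMI-8226, and in JJN3 within -0.99 to -0.87, a narrow range. The IRE1 shRNA arrays differed from uninfected by -1.39 in RPMI-8226 and -2.09 in JJN3, and the XBP1 shRNA arrays by 0.03 and 0.35. The NT, XBP1 and IRE1 differences in each line share its uninfected array, and are given side by side for that reason. The fitted NT difference of STAU1 was -1.33 ± 0.28 (SE; limma adjusted p = 0.887).

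Other genes were lower with NT and also with other hairpins. DPYSL2, a microtubule-binding protein of the collapsin response family, stood at -0.18 and -1.59 in RPMI-8226 and at 1.17 and 0.34 in JJN3. Its other infected arrays differed from uninfected by -0.66 and -0.60 in RPMI-8226 and by -0.92 and -0.99 in JJN3, so that the uninfected array was the highest of each line. TTC7B, part of the complex that brings a phosphatidylinositol kinase to the plasma membrane, had NT differences of -1.72 in RPMI-8226 and -0.90 in JJN3. The XBP1 hairpin gave -1.35 and -0.61 and the IRE1 hairpin -0.39 and -0.37. GUCD1 was lower with NT (-1.36 and -0.81) and the XBP1 hairpin (-1.20 and -1.16), while the IRE1 hairpin gave -0.17 and -0.08. The proto-oncogene MYB had NT differences of -0.74 and -0.87, and its relative MYBL2, a regulator of cell cycle genes, of -0.92 and -0.79. With the XBP1 hairpin MYB differed by -1.06 and -1.45 and MYBL2 by -0.80 and -1.33. The IRE1 hairpin gave 0.19 and -1.51 for MYB, and 0.08 and -0.29 for MYBL2. DUSP4, a phosphatase that switches off MAP kinases, differed by -1.12 and -0.51.

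**Figure D2:**
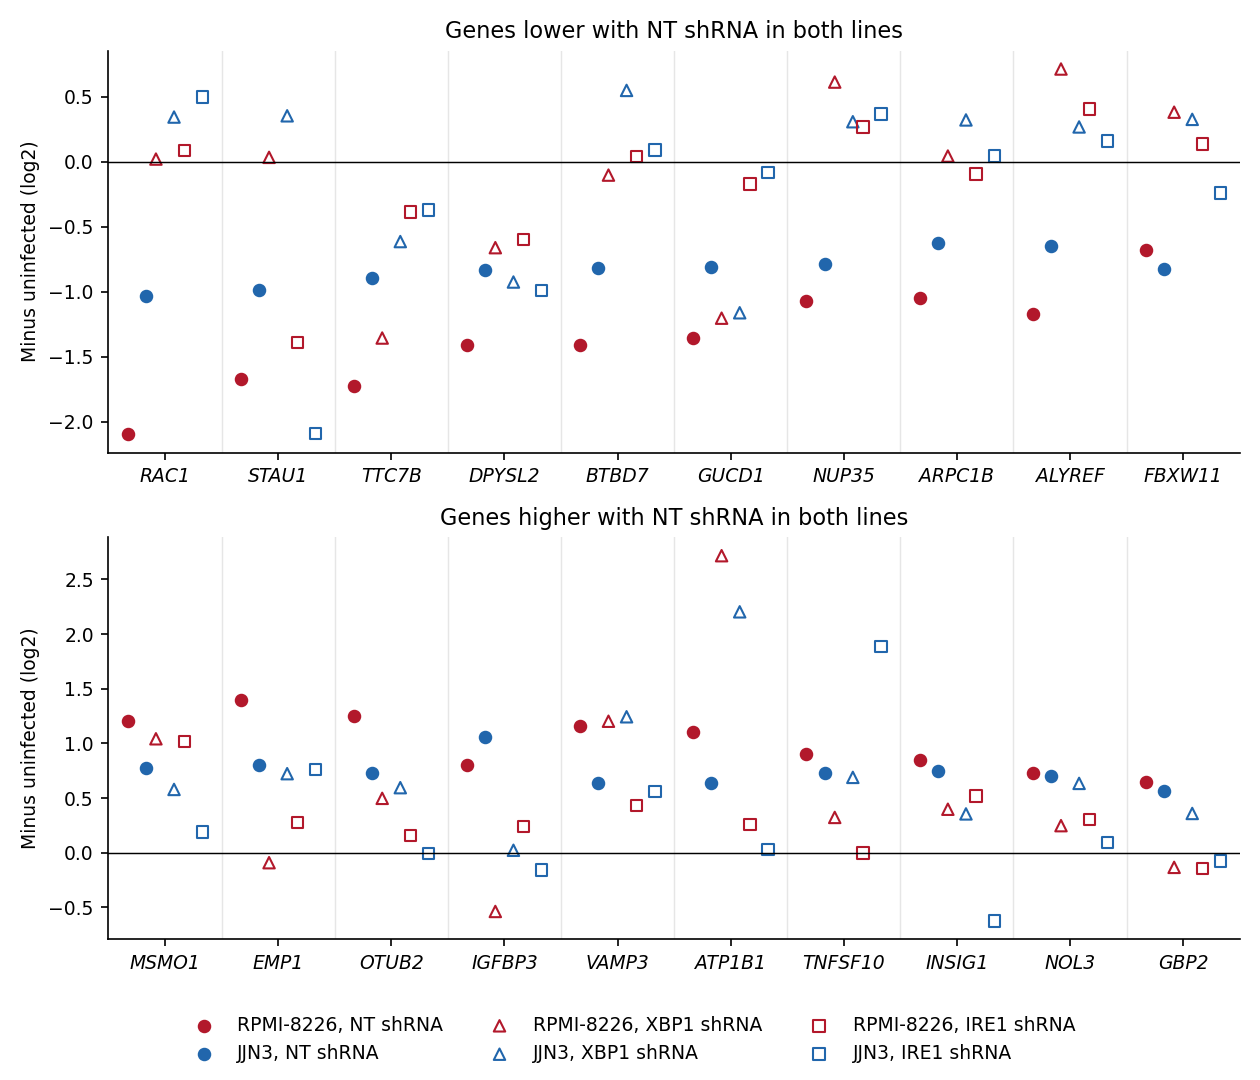
Difference of each infected array from the uninfected array of its line (log2) for 10 genes lower and 10 genes higher with NT shRNA in both lines, with filled circles for NT, triangles for XBP1 and squares for IRE1 shRNA, RPMI-8226 in red and JJN3 in blue. For RAC1, NUP35, ARPC1B and ALYREF only the NT circles lie well below 0, whereas for DPYSL2 all 6 infected arrays do.

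Of the genes that were higher with NT in both lines, TNFSF10, IGFBP3 and EMP1 encode surface or secreted proteins. TNFSF10 encodes TRAIL, a death ligand of the TNF family. It stood at -0.01 uninfected and 0.90 NT in RPMI-8226 and at -0.72 and 0.01 in JJN3. All 3 of its probe sets were higher, by 0.68 to 1.12 in RPMI-8226, and in JJN3 by 0.72 to 0.73. In JJN3 the IRE1 shRNA array was higher still, 1.88 above uninfected, while the same hairpin in RPMI-8226 gave 0.00. IGFBP3, which binds insulin-like growth factors, stood at 3.28 uninfected and 4.08 NT in RPMI-8226 and at -3.79 and -2.74 in JJN3. Its second probe set was 0.95 higher in RPMI-8226 and differed by -0.26 in JJN3. EMP1, a membrane protein of epithelial and other cells, was 1.39 and 0.80 higher, with 3 of 6 probe sets higher in both lines and 1 lower in both.

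ATP1B1, the beta subunit of the sodium pump, was 1.11 and 0.64 higher with NT. The XBP1 hairpin gave 2.72 and 2.20, and the IRE1 hairpin 0.26 and 0.03. VAMP3, a vesicle fusion protein of the endosome, was 1.15 and 0.64 higher with NT, and 0.43 to 1.24 higher on the other infected arrays, so that uninfected cells had the lowest value of each line. NOL3, an inhibitor of apoptosis, was higher at all 4 of its probe sets, by 0.41 to 0.73 in RPMI-8226, and in JJN3 by 0.22 to 0.70. BIK, a death-promoting member of the BCL2 family, went the same way as NOL3, with differences of 1.64 and 0.52. CTSZ, a lysosomal protease, was 1.36 and 0.57 higher at 1 probe set and differed by 0.15 and -0.03 at the other, so that its fitted difference of 0.97 was 0.51 with their mean. The fitted differences were 0.82 ± 0.41 for TNFSF10 (adjusted p = 0.909), 0.93 ± 0.22 for IGFBP3, 0.87 ± 0.17 for ATP1B1 and 1.08 ± 0.27 for BIK (SE; limma adjusted p = 0.887 for the last 3).

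The other genes were read in 30 gene lists, by their members' counts and medians. These hold 727 entries, of which 666 were measured. Members without a matched probe set were not analysed here. In 0 of the 30 lists did a member pass the threshold, as for all genes. The medians of 14 lists had opposite signs in the 2 lines. Over all genes, 29.5% were higher and 26.6% lower in both lines. At an unadjusted p under 0.05 in limma's fit, 2.75% were higher and 2.72% lower. The counts of each list below are to be read beside these shares.

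**Figure D3:**
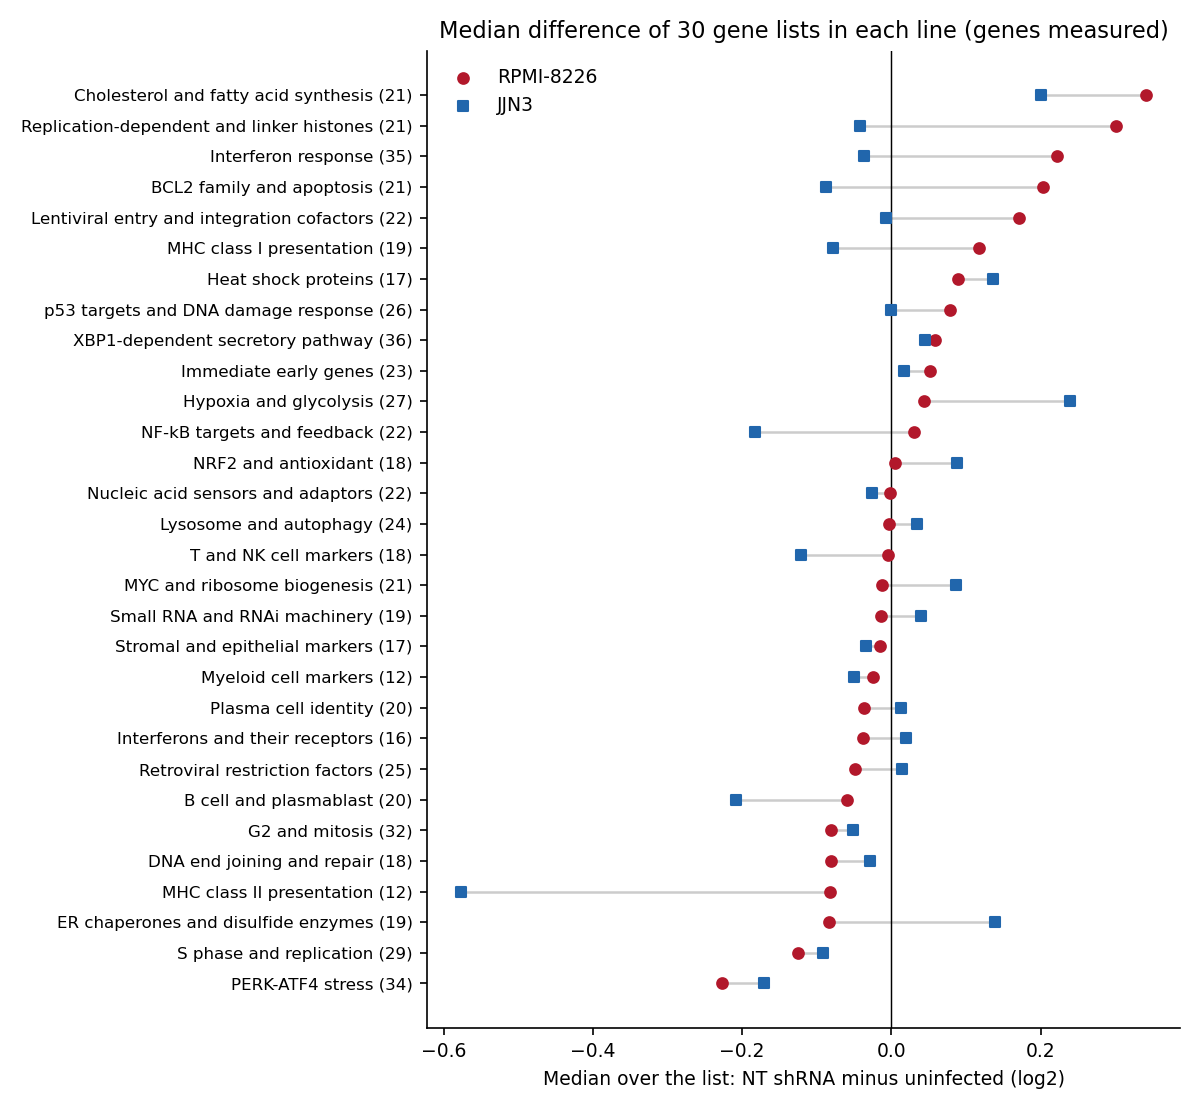
Median NT minus uninfected difference (log2) of the measured genes of 30 lists, as circles for RPMI-8226 and squares for JJN3, with the number of genes in parentheses. Cholesterol and fatty acid synthesis lies above 0 and PERK-ATF4 stress below 0 in both lines, and MHC class II presentation lies at -0.58 in JJN3 against -0.08 in RPMI-8226.

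The sensors of foreign nucleic acid differed in both directions. Of 22 sensors and adaptors, 7 were higher and 9 lower in both lines, with medians of 0.00 in RPMI-8226 and -0.03 in JJN3. IFIH1 encodes MDA5, a sensor of long double-stranded RNA. It stood at 0.02 uninfected and -0.93 NT in RPMI-8226 and at 0.47 and 0.16 in JJN3, and all 3 of its probe sets were lower in both. STING1, the adaptor of cytosolic DNA sensing, stood at 0.62 and 1.54 in RPMI-8226 and at -0.80 and -0.51 in JJN3. IFIH1 and STING1 were the 1 lower and the 1 higher member at an unadjusted p under 0.05, with fitted differences of -0.63 ± 0.19 and 0.60 ± 0.23 (SE; limma adjusted p = 0.887 for both). RIGI differed by -0.18 in each line, CGAS by -0.02 and -0.18, and IFNB1, the interferon beta gene, by 0.05 and 0.30. Of the 3 RIGI probe sets 1 was lower and 1 higher in both lines, with a mean of -0.29 and 0.12. The CGAS mean was 0.08 and -0.09. IRF9, the DNA-binding part of the interferon-activated complex, was 1.15 higher in RPMI-8226 and 0.03 in JJN3.

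Interferon response genes stood higher with NT in RPMI-8226 than in JJN3, a difference between lines that was not tested. The 35 genes had a median difference of 0.22 in RPMI-8226 and of -0.04 in JJN3. Over all genes the medians were 0.02 and 0.00. In both lines 12 members were higher and 9 lower, and 14 had opposite signs. At an unadjusted p under 0.05, 1 member was higher and 1 lower. GBP2, an interferon-induced GTPase, was the higher one. It stood at -0.09 uninfected and 0.56 NT in RPMI-8226 and at 0.04 and 0.60 in JJN3, while the other 4 infected arrays lay between -0.23 and 0.40. The NT value of GBP2 was thus the highest of the 4 treatments in each line, and its second probe set was higher by 1.13 and 0.37. EPSTI1 was the lower one, at -0.76 and -0.33, with 0.20 and -0.09 at its second probe set. The fitted median of the list was 0.12 with all arrays and -0.10 without the RPMI-8226 NT array.

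IFIT3, which binds other IFIT proteins on viral RNA, stood at -0.31 uninfected and 1.16 NT in RPMI-8226 and at -0.77 and -0.21 in JJN3. In JJN3 its XBP1 and IRE1 shRNA arrays were further above uninfected (1.81 and 2.14) than the NT array (0.56). In RPMI-8226 they were not, at -0.09 and 0.52 against 1.48. ISG15, a ubiquitin-like modifier, differed by 0.77 and 0.17, and IFI6 by 0.58 and 0.09. OASL differed by 0.53 and 0.05. Other members were lower in both lines at the probe set used. MX1 differed by -0.16 in each line, IFIT1 by -0.34 and -0.05, and OAS1 by -0.19 and -0.39. RSAD2 differed by -0.35 and -0.02, and IFI44L by -0.14 and -0.22. Of the 2 RSAD2 probe sets 1 was lower and 1 higher in both lines, with a mean of -0.16 and 0.19.

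Proteins that restrict retroviruses showed no common direction. Of 25 restriction factors 8 were higher and 7 lower in both lines, against 29.5% and 26.6% of all genes. Their medians were -0.05 and 0.01. At an unadjusted p under 0.05, 3 were higher and 2 lower, against 2.75% and 2.72% of all genes. TRIM5, which binds incoming retroviral capsids, was 0.53 and 0.46 higher at 1 probe set and differed by -0.01 and -0.03 at the other. SERINC5, which impairs virion entry, was 0.35 and 0.42 higher. MORC2, a partner of the HUSH complex that silences integrated proviruses, was 0.38 and 0.44 higher, but 1 of its 3 probe sets was lower in both lines. PPHLN1, a subunit of that complex, differed by -0.66 and -0.20, while of its 5 probe sets 2 were lower and 2 higher in both lines and their mean was 0.012 and -0.006. APOBEC3G, a cytidine deaminase that mutates retroviral DNA, was lower at -0.88 and -0.29, although its second probe set was higher by 0.29 and 0.09. Of 22 cofactors of lentiviral entry and integration, 8 were higher and 4 lower in both lines. PSIP1, which tethers the integrase to chromatin, differed by -0.31 and -0.12.

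**Figure D4:**
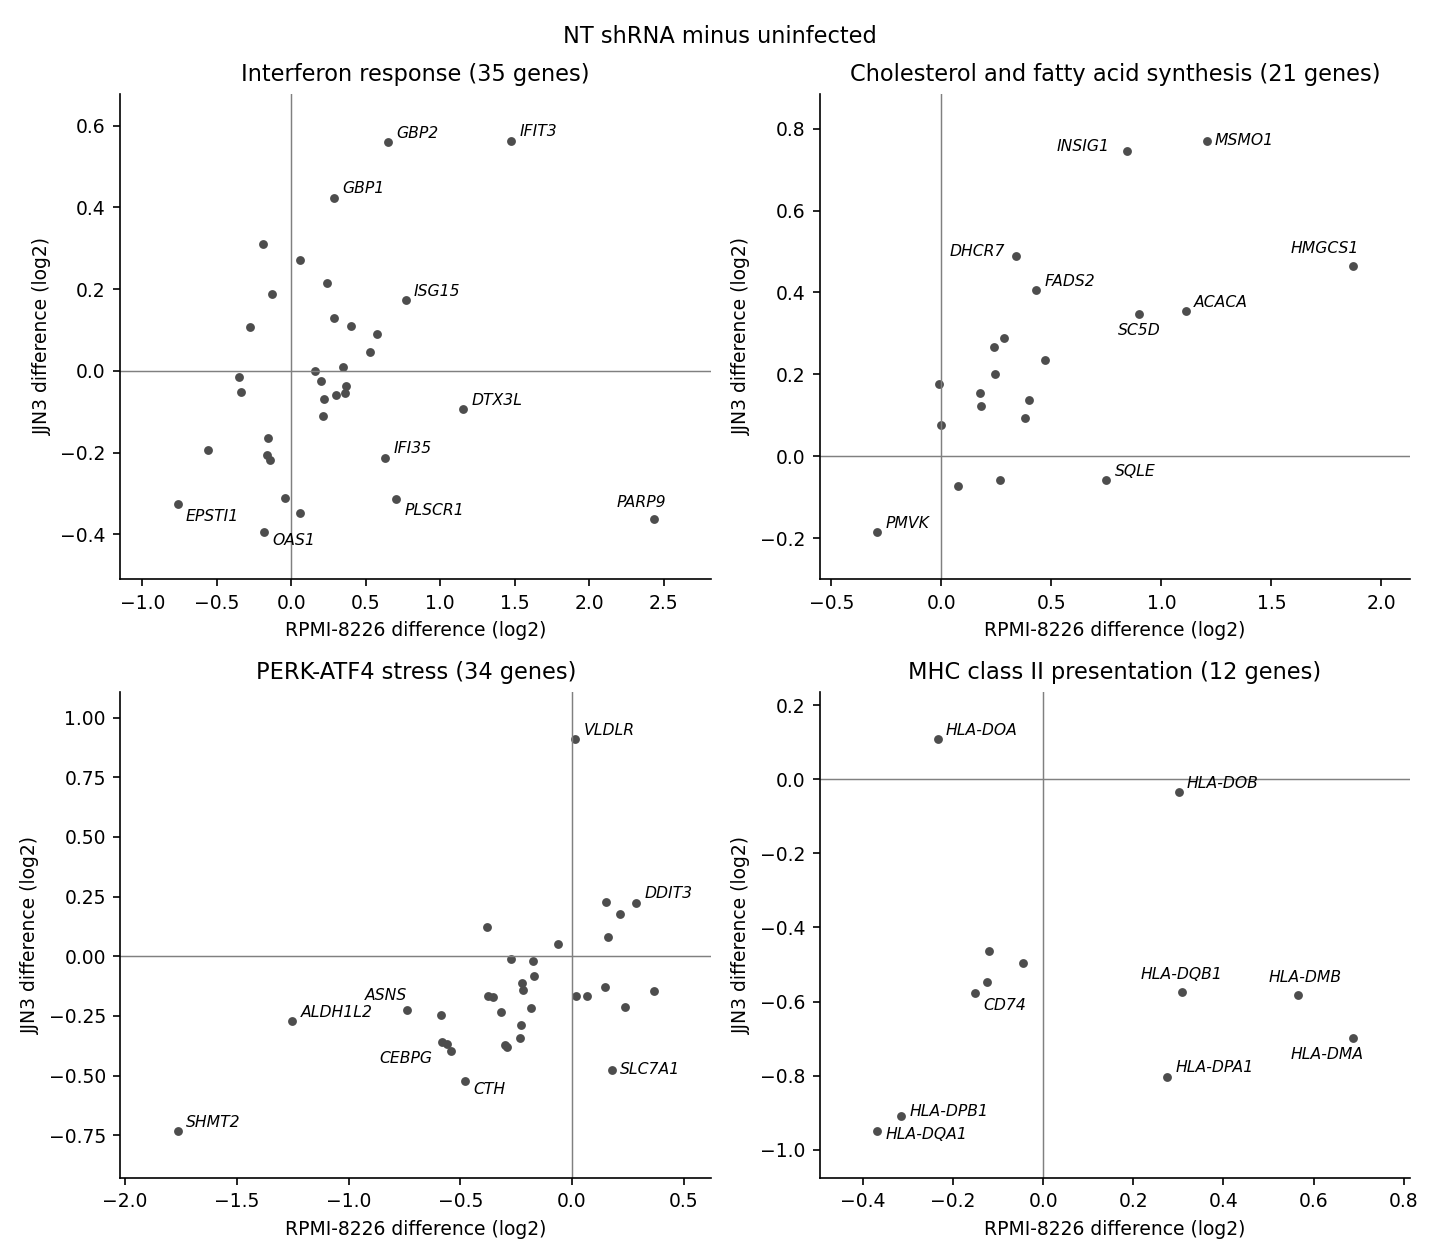
NT minus uninfected difference (log2) of each member of 4 gene lists, RPMI-8226 on the x axis and JJN3 on the y axis, each panel with its own scale. The sterol genes lie mostly up and right of 0, the PERK-ATF4 genes mostly down and left, the class II genes below 0 on the JJN3 axis, and the interferon genes on all sides.

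Components of RNA interference were near 0, with 8 of 19 higher and 5 lower in both lines. DICER1, which cuts hairpins, differed by -0.13 and 0.02, XPO5, which exports them, by 0.07 and 0.04, and AGO2, the slicing Argonaute, by -0.01 and -0.11. PRKRA, a partner of DICER1, was higher by 0.40 and 0.50, and LIN28B, which blocks maturation of let-7, by 0.75 and 0.33. These were the 2 members at an unadjusted p under 0.05 (fitted 0.45 ± 0.18 and 0.54 ± 0.18, SE; limma adjusted p = 0.887 for both). AGO3 was lower, at -0.45 and -0.44.

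Genes of cholesterol and fatty acid synthesis were higher in both lines. Of 21 measured, 15 were higher and 1 lower in both, against 29.5% and 26.6% of all genes, and the medians were 0.34 and 0.20. At an unadjusted p under 0.05, 6 were higher and 0 lower. MSMO1, which removes methyl groups from sterol intermediates, stood at -1.14 uninfected and 0.07 NT in RPMI-8226 and at -0.07 and 0.70 in JJN3. The uninfected array was the lowest of each line for MSMO1, with XBP1 and IRE1 shRNA 1.04 and 1.01 above it in RPMI-8226 and 0.58 and 0.19 in JJN3. INSIG1, which holds the sterol sensor in the endoplasmic reticulum and is itself induced by SREBP, stood at 0.07 and 0.92 in the first line and at -0.82 and -0.07 in the second. All 3 INSIG1 probe sets were higher in both lines.

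HMGCS1, which makes the precursor of mevalonate, stood at -1.57 uninfected and 0.30 NT in RPMI-8226 and at 0.06 and 0.53 in JJN3, and its second probe set was higher by 0.60 and 0.52. ACACA, the rate-limiting enzyme of fatty acid synthesis, was 1.11 and 0.36 higher, SC5D 0.90 and 0.35 at 1 of 2 probe sets, the other being lower in both lines, and DHCR7, the last step to cholesterol, 0.34 and 0.49. SREBF1 and SREBF2, which encode the SREBP regulators, differed by 0.08 and 0.24 in RPMI-8226 and by -0.07 and 0.20 in JJN3. The fitted differences were 0.99 ± 0.20 for MSMO1, 0.79 ± 0.27 for INSIG1 and 1.17 ± 0.33 for HMGCS1 (SE; limma adjusted p = 0.887 for each). Without the uninfected RPMI-8226 array the list's fitted median was 0.14, and without that of JJN3 it was 0.49, against 0.27 with all arrays.

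PERK-ATF4 targets were lower in both lines. Of 34 measured, 21 were lower and 5 higher in both, with medians of -0.23 in RPMI-8226 and -0.17 in JJN3. The member lower at an unadjusted p under 0.05 was SHMT2, a mitochondrial enzyme of serine and one-carbon metabolism, which differed by -1.76 in RPMI-8226 and -0.73 in JJN3, with all 3 probe sets lower in both. ALDH1L2, which acts in the same mitochondrial pathway, differed by -1.25 and -0.27. ASNS, which makes asparagine, differed by -0.74 and -0.23, although its other probe set was higher by 0.18 and 0.23. CEBPG differed by -0.54 and -0.40, and TRIB3 by -0.58 and -0.24. ATF4 itself differed by -0.36 and -0.17. DDIT3, which encodes the stress factor CHOP, was higher by 0.29 and 0.22.

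The uninfected JJN3 culture had the highest value of its line for several of these enzymes. ASNS stood there at 0.81 against 0.58 with NT, -0.70 with XBP1 shRNA and -2.50 with IRE1 shRNA. CTH, which makes cysteine, stood at 2.30 against 1.78, 0.08 and -1.29. The list's median on the XBP1 and IRE1 shRNA arrays was -1.22 and -1.83 below uninfected in JJN3 and -0.67 and -0.41 in RPMI-8226. The fitted median of the list for NT against uninfected changed sign when 1 array was left out. It was 0.17 without the RPMI-8226 NT array and 0.18 without the JJN3 uninfected array, against -0.17 with all arrays. These fits take the line difference from treatments that include XBP1 and IRE1 shRNA, where the list's medians differed between the lines. The list's NT median was -0.23 in RPMI-8226 alone and -0.17 in JJN3 alone, so the sign change is not that of a measured pair.

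The 2 proteins silenced elsewhere in the study belong to the same stress network. XBP1, the transcription factor that IRE1 activates by splicing, stood at 0.19 uninfected and 0.02 NT in RPMI-8226 and at 1.02 and 1.11 in JJN3, a fitted difference of -0.04 ± 0.38 (SE; limma adjusted p = 0.996). ERN1, which encodes IRE1, stood at 2.75 and 1.73 in RPMI-8226 and at -0.29 and -0.35 in JJN3. Its fitted difference was -0.54 ± 0.33 (SE; limma adjusted p = 0.914), and 2 of its 3 probe sets were lower in both lines. Of 36 genes of the XBP1-dependent secretory pathway 14 were higher and 8 lower in both lines, with medians of 0.06 and 0.05. Among chaperones of the endoplasmic reticulum, HSP90B1 was higher by 0.47 and 0.33 and P4HB was lower at -0.96 and -0.22. ERO1B was higher by 0.76 and 0.59 at 1 probe set and lower at the other, by -0.76 and -0.06.

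Genes of class II antigen presentation were lower with NT in JJN3. Of the 12 genes 1 had a positive difference there, with a median of -0.58, against 5 of 12 and -0.08 in RPMI-8226. In both lines 6 were lower and 0 higher. HLA-DQA1 stood at 4.12 uninfected and 3.17 NT in JJN3 and at -3.20 and -3.57 in RPMI-8226. The differences of its 3 probe sets ranged from -1.63 to 0.06 in JJN3 and from -0.37 to 0.16 in RPMI-8226. HLA-DPA1 stood at 2.93 and 2.13 in JJN3 and at -2.49 and -2.21 in RPMI-8226, and all 3 of its probe sets were lower in JJN3, at -0.92 to -0.80. CD74, the invariant chain, differed by -0.58 in JJN3 and -0.15 in RPMI-8226, and CIITA, the master regulator of these genes, by -0.55 and -0.12. In JJN3 their other probe sets differed by 0.09 and -0.06 for CD74 and by 0.21 and -0.06 for CIITA. In JJN3 the list's median was -0.93 with XBP1 shRNA and 0.32 with IRE1 shRNA against the same uninfected array. Fewer cells with these transcripts and less of them per cell cannot be told apart in such bulk RNA. HLA-DPB1, at -0.91 in JJN3 and -0.32 in RPMI-8226, was the 1 member at an unadjusted p under 0.05 (fitted -0.61 ± 0.23, SE; limma adjusted p = 0.887). Its second probe set differed by -0.51 in JJN3 and 0.35 in RPMI-8226. The list's fitted median of -0.27 was -0.05 without the JJN3 NT array and -0.09 without its uninfected array, and -0.16 with the mean over probe sets.

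B cell and plasma cell genes differed in part. Of 20 B cell and plasmablast genes 10 were lower and 1 higher in both lines, with medians of -0.06 in RPMI-8226 and -0.21 in JJN3. The list's fitted median was -0.07, and 0.0036 with the mean over probe sets. BLNK, an adaptor of the B cell receptor with 1 probe set, differed by -0.71 and -0.28. TCF3, a transcription factor of the B lineage, differed by -0.97 and -0.23 at the probe set used. Of its 14 probe sets, however, 4 were lower and 4 higher in both lines, with a mean of 0.026 and -0.010. In the plasma cell list, 6 of 20 genes were higher and 6 lower in both. SDC1, the surface marker CD138, differed by -1.03 and -0.34 at 1 probe set and by -0.16 and -0.01 at the other, TNFRSF17, which encodes BCMA, by -0.74 and -0.21, and IRF4 by -0.64 and -0.18. Higher were CD38, a surface enzyme of plasma cells, at 0.87 and 0.01, and the adhesion receptor CD44, at 0.19 and 0.67, with 9 of its 13 probe sets higher in both lines and 0 lower in both.

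Replication genes were lower more often than higher. Of 29, 13 were lower and 2 higher in both lines, against 26.6% and 29.5% of all genes, with medians of -0.12 and -0.09. CDT1, which loads the replicative helicase onto DNA, stood at 1.63 uninfected and -0.29 NT in RPMI-8226 and at 0.07 and -0.30 in JJN3. UHRF1, which maintains DNA methylation after replication, differed by -0.75 and -0.49. The helicase subunits MCM2 to MCM6 differed by -0.50 to -0.25 in RPMI-8226 and by -0.38 to -0.09 in JJN3. CDT1 and UHRF1 were the 2 members lower at an unadjusted p under 0.05 (fitted -1.14 ± 0.31 and -0.62 ± 0.23, SE; limma adjusted p = 0.887 for both). Of 32 genes of G2 and mitosis, 14 were lower and 6 higher in both, against the same shares. CENPE, a kinesin of the kinetochore, was lower by -0.67 and -0.20, the 1 member at an unadjusted p under 0.05. BUB1, a spindle checkpoint kinase, was among the higher ones at 0.55 and 0.43, with a mean over its 5 probe sets of 0.26 and 0.08. The fitted median of the replication list was -0.12 with all arrays, 0.07 without the RPMI-8226 NT array and 0.0055 without the JJN3 uninfected array, and that of the G2 and mitosis list was -0.06, 0.057 and 0.017.

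Genes of hypoxia and glycolysis were higher in JJN3, with a median of 0.24 against 0.04 in RPMI-8226. Of 27, 13 were higher and 2 lower in both lines, against 29.5% and 26.6% of all genes. At an unadjusted p under 0.05, 3 were higher, against 2.75% of all genes. EGLN3, an oxygen-sensing hydroxylase, was higher by 0.39 in each line, and its other 4 infected arrays were 0.39 to 0.46 above uninfected. ALDOC, a glycolytic aldolase, was higher by 0.47 and 0.58. The glucose transporter SLC2A3 was higher by 1.69 and 0.41, but its other 2 probe sets were lower in JJN3, at -0.43 and -0.79. PFKFB4, which promotes glycolysis, was 0.75 higher in JJN3 and differed by -0.24 in RPMI-8226. The fitted median of 0.14 was -0.01 without the JJN3 NT array.

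The largest single differences were seen in RPMI-8226 alone, where 1 array is compared with 1. They were higher with NT, although more genes there were at least 2-fold lower (135) than higher (110). BCL6, the repressor that defines germinal centre B cells, stood at -3.85 uninfected, -0.15 NT, -3.93 with XBP1 shRNA and -3.92 with IRE1 shRNA. In JJN3 it ranged from 0.15 to 0.87. The difference of 3.70 came from 1 of 3 BCL6 probe sets, the others giving 0.36 and -0.18. SPP1, which encodes the secreted protein osteopontin, stood at -0.81, 2.87, -1.23 and -0.51 on the same 4 arrays, with a second probe set 0.15 higher. IL10, an anti-inflammatory cytokine with 1 probe set, stood at 2.13, 5.45, 0.17 and 0.67. SOCS3, a feedback inhibitor of cytokine signalling through STAT3, stood at -1.98, -0.01, -2.21 and -2.45. Its other 3 probe sets differed by 0.80, 0.04 and -0.33.

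In each case the RPMI-8226 NT array was the highest of its line. The JJN3 differences of these genes were -0.23 for BCL6, -0.17 for SPP1, 0.15 for IL10 and -0.27 for SOCS3. PARP9 and DTX3L encode partners in an ADP-ribosylation and ubiquitin ligase complex of the interferon response, and share the promoter core shown above. PARP9 stood at -2.74 uninfected, -0.30 NT, -2.64 with XBP1 shRNA and -2.68 with IRE1 shRNA in RPMI-8226. DTX3L stood at -1.39, -0.24, -1.29 and -2.24. In JJN3 the NT differences were -0.36 and -0.09. The second PARP9 probe set was 0.64 higher in RPMI-8226 and differed by -0.08 in JJN3.

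TYMP, thymidine phosphorylase, was 2.33 higher in RPMI-8226 and 0.02 in JJN3, and its second probe set 0.90 and -0.01. With the JJN3 NT array left out, BCL6 and TYMP passed limma's threshold (3.51 ± 0.25, adjusted p = 0.0177, and 2.37 ± 0.20, adjusted p = 0.0321; SE). These 2 values rest on the RPMI-8226 NT array, taken to vary like the other groups. CFL2, the muscle form of the actin-severing protein cofilin, was higher at all 3 probe sets, by 2.63 to 2.91 in RPMI-8226, and in JJN3 by 0.47 to 0.55. CXCL8, the chemokine interleukin-8, was 1.11 higher in RPMI-8226 at 1 probe set and -0.06 at the other, and CCNE2, a cyclin of the G1 to S transition, 1.55 and 0.98. The 5 lowest in RPMI-8226 by the mean over probe sets were RAB39B (-1.67), CDT1 (-1.37), NEDD1 (-1.33), OGFRL1 (-1.10) and SULF1 (-1.08). The 5 highest by that mean included GSAP (2.03) and SLC2A5 (1.73). Both rankings are among genes with at least 2 probe sets and a JJN3 difference under 0.5 in size.

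**Figure D5:**
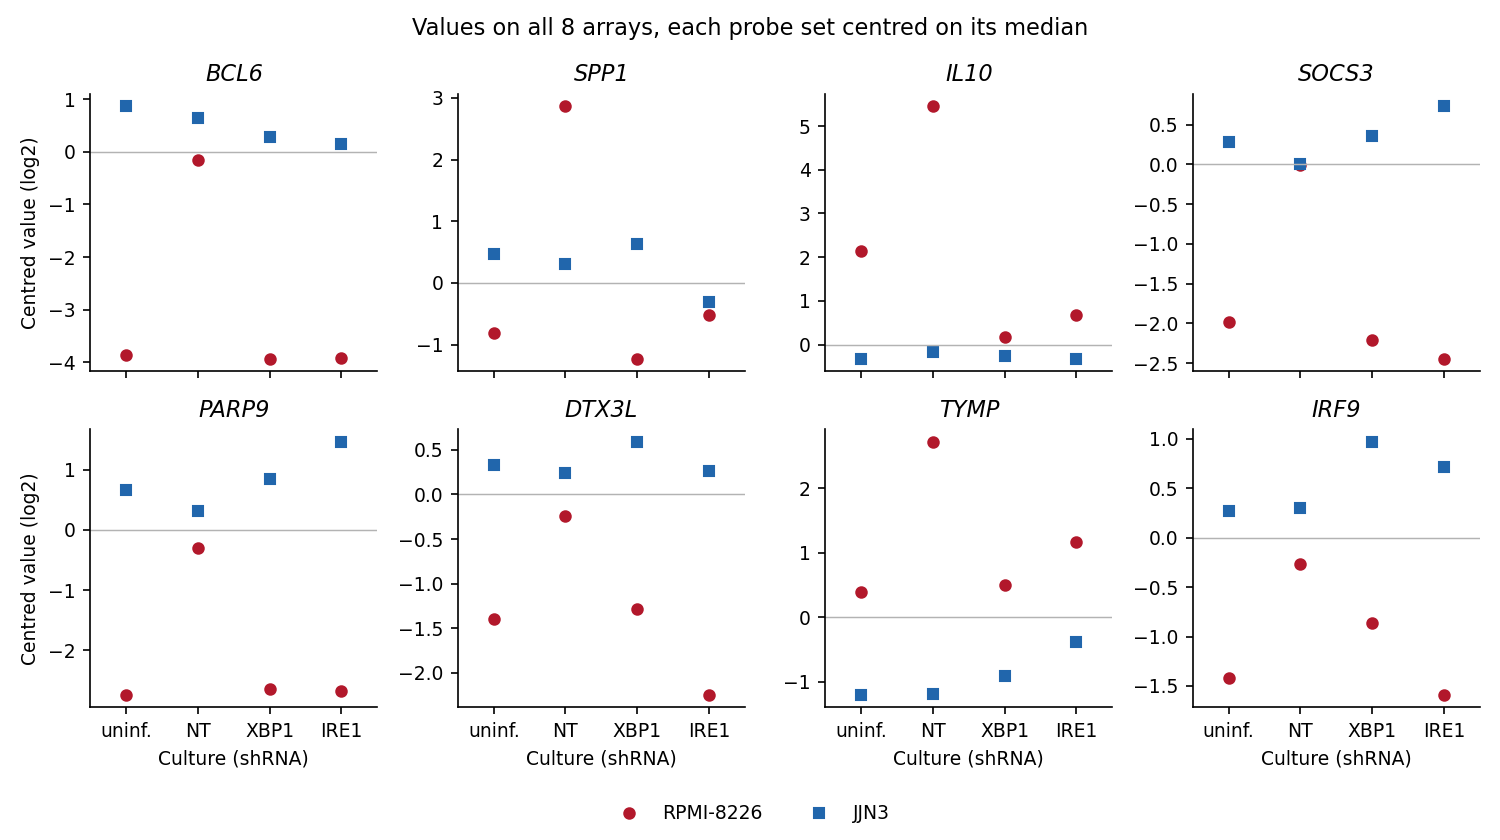
Centred values (log2) on all 8 arrays of 8 genes, with RPMI-8226 as circles and JJN3 as squares, for the uninfected culture and the cultures with NT, XBP1 or IRE1 shRNA. In RPMI-8226 the NT array is the highest of the 4 for each of the 8 genes, whereas in JJN3 the NT and uninfected squares lie close together.

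Differences confined in size to JJN3 were smaller. CCR1, a chemokine receptor, stood there at -1.11 uninfected and -0.34 NT, and in RPMI-8226 at 0.87 and 0.86. ACOXL, a relative of the peroxisomal acyl-CoA oxidases, stood at 0.29 and 1.28 in JJN3 and at -0.35 and -0.33 in RPMI-8226. The immediate early gene EGR1 had differences of opposite sign, 1.10 in JJN3 and -1.16 in RPMI-8226.

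Genes of other cell types gave small differences. The T and NK cell list had medians of 0.00 in RPMI-8226 and -0.12 in JJN3 (6 of 18 higher, 8 lower in both), the myeloid list -0.02 and -0.05 (2 of 12 and 2 of 12), and the stromal and epithelial list -0.02 and -0.03 (3 of 17 and 5 of 17). Because the values are centred, no level can be given for these markers.

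When all 6 infected arrays were set against the 2 uninfected ones, limma called 0 of 19775 genes (0.0%), with a smallest adjusted p of 0.995 and 756 genes at an unadjusted p under 0.05 (3.82%). In this fit DPYSL2 had a difference of -0.90 ± 0.20, MSMO1 of 0.80 ± 0.19, VAMP3 of 0.87 ± 0.24 and RAC1 of -0.36 ± 0.60 (SE; limma adjusted p = 0.995 for each). The spread of RAC1 is thus wider than its difference here, since only the NT arrays were low.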

How the data were processed

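RNA of 8 cultures (2 lines by 4 treatments) was measured on 8 arrays, 1 per line and treatment. Per the submitters' processing notes, the deposited values were made with RMA, which corrects background, normalises the arrays to each other and gives log2 values. The version is not given in the sources used here, and neither the log base nor the centring is stated: log2 was assumed because RMA returns it. No 2 of the 28 array pairs were identical (0 pairs). The number of arrays limits the precision, and signal over background cannot be read from centred values.

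Of the probe sets, 41097 carry a single gene symbol in the platform annotation (19775 genes), 1801 carry several and 11777 are not listed. Of the Entrez identifiers 41043 matched RefSeq's gene table (GRCh38.p14, used for names), 54 were unmatched, and the symbol of 0 probe sets was replaced. Of the 13578 probe sets without a single symbol, 0 were at least 2-fold apart the same way in both lines. For the 10523 genes with several probe sets, the one with the highest SD over the XBP1 and IRE1 shRNA arrays was used.

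The test was limma's (version 3.58.1, R version 4.3.3; lmFit and eBayes, two-sided), run on all 8 arrays, with treatment and line as terms, Benjamini-Hochberg adjustment over 19775 genes and a threshold of 0.05. The line is the replicate number, so the pairing comes from the cell line. The fit was tested on simulated data. Motifs were searched on both strands of RefSeq promoter windows. Genes named by rule were those past the threshold (0 genes) or 2-fold the same way in both lines (RAC1), up to 4 members of each list by fitted difference, ERN1 and XBP1, and for each line the 5 highest and 5 lowest by the mean over probe sets, among genes with at least 2 probe sets and a difference under 0.5 in the other line. Not every list member so named is described above. Further genes and list members (1.5-fold in both lines, or apart on 1 array) were chosen after the values were seen. The comparison and all lists were chosen with earlier results of these data known. Alternatives were other probe set rules, quantile and cyclic loess normalization, no block, a filter on SD, robust eBayes, fewer arrays, and each array left out.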

Additional observations from a re-analysis of the deposited data

Results flagged for a closer look

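Every result here is a difference between the lines, in which the NT arrays lay on opposite sides of uninfected. None was tested, because each line has 1 array per treatment. The value given is the JJN3 difference minus the RPMI-8226 difference (log2).

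Of single genes, BCL6 differed by -3.93, SPP1 by -3.84, PARP9 by -2.80, RNA45SN5 by -2.51, SOCS3 by -2.24, VMP1 by -1.76, CCNE2 by -1.59, ENO2 by -1.54, DTX3L by -1.25, CXCL8 by -1.18 and HLA-DPA1 by -1.08. All but HLA-DPA1 were higher with NT in RPMI-8226 by over 2-fold, and HLA-DPA1 was mainly lower in JJN3. These genes were singled out after their values were seen, and are not every gene with opposite signs. EGR1, described above, went the other way, at 1.10 in JJN3 and -1.16 in RPMI-8226.

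Of list medians, those lower in JJN3 were the replication-dependent and linker histones (-0.34), the BCL2 family (-0.29), the interferon response (-0.26), NF-kB targets (-0.21), MHC class I presentation (-0.20), lentiviral cofactors (-0.18) and p53 targets (-0.08). Those higher in JJN3 were chaperones of the endoplasmic reticulum (0.22), MYC and ribosome biogenesis (0.10), interferons and their receptors (0.06), restriction factors (0.06), RNAi machinery (0.05), plasma cell identity (0.05) and lysosome and autophagy (0.04).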

How the results depend on the processing

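The count of genes past limma's threshold stayed at 0 for NT shRNA against uninfected under every alternative run, other than with the JJN3 NT array left out, where it was 2 (BCL6 and TYMP). Over the arrays left out in turn it ranged from 0 to 2. For any lentivirus it was 0 throughout. The smallest adjusted p over all array scalings was 0.161, after quantile normalization. Without the replicate block, that is without the cell line as a term, the count was also 0, with 29 genes at an unadjusted p under 0.05 for NT and 43 for any lentivirus, against 1080 and 756 with the block. With the 4 arrays of the comparison alone it was 0, with 1688 unadjusted.

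Genes with a 2-fold difference in the same direction in each line numbered 1 (RAC1). The number was 0 with the mean over probe sets, 3 after quantile normalization (INSIG1 and TNFSF10 higher, RAC1 lower), 1 after cyclic loess (ZNF165, higher), 1 with the highest SD over all 8 arrays (SSBP3, lower), 58 at 1.5-fold and 0 at 3-fold. It could not be run with a replicate left out, since 1 line remains.

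Of 35 genes whose fitted differences were recomputed, 3 turned direction and 0 passed the threshold anywhere. CTH was 0.245 without the RPMI-8226 NT array and 0.276 without the JJN3 uninfected array, and XBP1 was 0.417 and 0.245. IFIT3 was -0.0235 without the RPMI-8226 NT array. These fits take the line difference from treatments that include the XBP1 and IRE1 shRNA arrays, and XBP1 is itself silenced there. The pairs left in were not reversed for CTH (-0.53 in JJN3 and -0.48 in RPMI-8226) or for IFIT3 (0.56 in JJN3). With each array left out in turn, CTH ranged from -1.28 to 0.276, XBP1 from -0.496 to 0.417, and IFIT3 from -0.0235 to 2.06. The medians of 3 of 30 lists turned sign under another scaling: RNAi machinery, MHC class I presentation and myeloid markers. Of the 30 medians 24 moved under some alternative by more than the spread between the lines. The cause was not tested. The number of arrays limits all of these, and no signal over background can be given for centred values.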
